A study of Mus musculus with 2 samples.

Results

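The genes described here belong to 2 growth factor systems, the bone morphogenetic protein (BMP) system with the related growth and differentiation factors (GDFs) and activins, and the fibroblast growth factor (FGF) system. They are 47 protein-coding mouse genes of 21883, of which 29 form the BMP arm and 18 the FGF arm. The genes were chosen by their function, with earlier results of these data known. A peak was counted at a gene when its centre lay in the gene's RefSeq span on mm10 or within 50 kb of it, which took 116 of 22485 listed peaks. Chromatin accessibility was measured by ATAC-seq, in which a transposase cuts open DNA, in 2 libraries of C57BL/6 adipose progenitors. The library called CD137 came from CD137+ cells, and the library called PDGFRα came from PDGFRα+ cells, which the labels also name CD140+. Both populations were taken by magnetic sorting (MACS) from SAT or VAT, cultured, given an adipogenic cocktail and then dexamethasone, a synthetic glucocorticoid, at 1 µM. Both groups therefore carry the drug, and no value below measures its effect. The labels give neither age nor sex, leave the depot of each population and any pooling of animals unstated, and describe the lysis step with words for embryos.

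BMPs, GDFs and activins are secreted dimers, most of which bind a pair of type I and type II receptor kinases. BMP receptors phosphorylate the transcription factors Smad1, Smad5 and Smad9, and proteins such as noggin, gremlin and chordin hold the ligands away from the receptors. FGFs bind receptor tyrosine kinases, and the Sprouty proteins dampen the signal from inside the cell. In adipose tissue Bmp4 is known for committing mesenchymal cells to the fat lineage, Bmp7 and Bmp8b for thermogenic fat, and Fgf10 for the growth of white fat.

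The deposited lists hold only peaks that the authors call unique to a library, 14483 for CD137 and 8002 for PDGFRα, with a position, an Ensembl ID and a place class but no height or read number. The depth is therefore unknown, and a gene without a peak may be open in both libraries or in neither. Each group is a single library, so differences lack a replicate check and carry no p-value. Intervals are exact binomial or Newcombe 95% intervals and cover counting error only, and peaks at the same gene are not independent. In bulk cells, a site open in fewer cells and a site less open in each cell cannot be told apart. Marker genes of several cell types carried unique peaks of both lists, as did many genes, since 65.1% of all protein-coding genes had a peak of either list and 64.4% of all peaks were CD137 peaks. Of 8 stromal progenitor markers 7 had a peak (11 CD137 and 6 PDGFRα peaks, none at Pdgfrb), of 8 adipocyte markers 8 (11 and 5), of 8 beige markers 7 (21 and 8, none at Tbx1), of 8 endothelial markers 7 (7 and 9), of 8 immune markers 6 (5 and 5), of 8 mesothelial markers 8 (8 and 9) and of 8 early embryo markers 6 (10 and 4). Pdgfra itself had 1 CD137 peak within 50 kb, and Tnfrsf9, which encodes CD137, had 1 of each list. The part of these other cell types in the results was not tested.

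Of the 47 genes, 41 had at least 1 unique peak. CD137 peaks lay at 36 genes (76.6%) and PDGFRα peaks at 24 (51.1%), whereas of all protein-coding genes 49.5% had a CD137 peak, 40.4% a PDGFRα peak and 65.1% a peak of either list. Peaks of both lists lay at 19 members, of CD137 alone at 17 and of PDGFRα alone at 5, against 24.8%, 24.7% and 15.6% of all protein-coding genes. The member genes are longer than most, with a median of 39.4 kb in the BMP arm and 49.4 kb in the FGF arm against 17.2 kb over all genes, and longer genes have more peaks. Giving each member the share of all genes of its own length class, out of 6 classes, yields 26.3 genes with a CD137 peak, 21.3 with a PDGFRα peak and 33.1 with either. The PDGFRα count of 24 was thus close to the number that length alone gives, and the CD137 count of 36 lay above it. Members were chosen with earlier results of these data known, and the part of that choice in these counts was not tested. The 10 members of 50 to 100 kb all had a CD137 peak, where 63.1% of genes of that length did, and 8 of them had a PDGFRα peak, where 50.3% did.

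**Figure D1:**
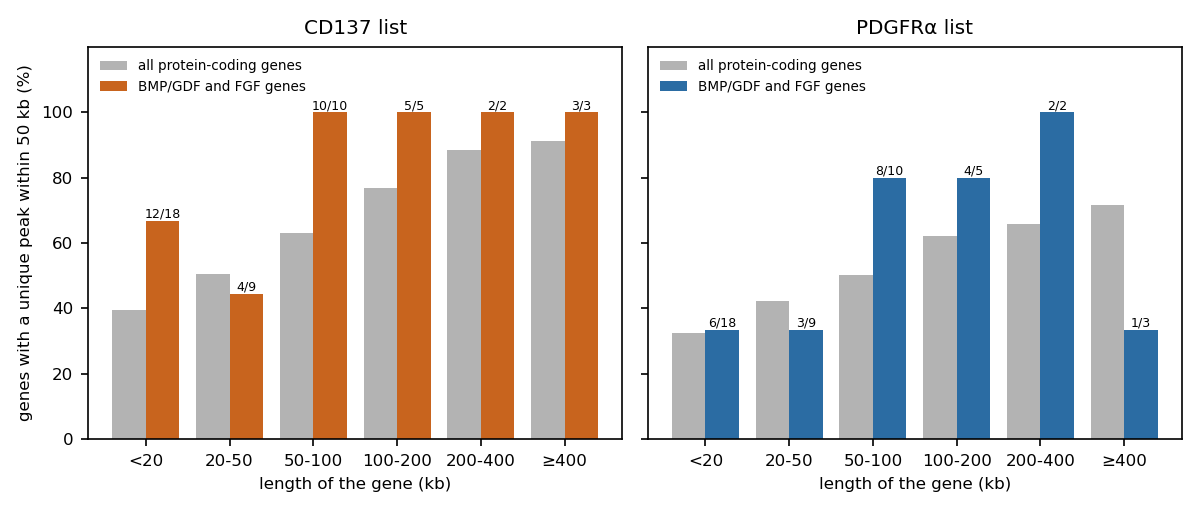
Share of genes with a unique peak within 50 kb (%) by gene length (kb), for all protein-coding genes (grey) and for the BMP/GDF and FGF genes (coloured), in the CD137 list (left) and the PDGFRα list (right). The numbers give members with a peak of members in the class. In the CD137 list the members stood above all genes in every class but that of 20 to 50 kb, where 4 of 9 had a peak.

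The BMP and FGF arms divided between the lists in nearly the same way. BMP genes had 41 CD137 and 22 PDGFRα peaks, a CD137 share of 65.1% (52.0 to 76.7%). FGF genes had 34 and 19, a share of 64.2% (49.8 to 76.9%). The BMP share minus the FGF share was 0.928 percentage points (Newcombe interval -16.0 to 18.1), so a difference of up to about that interval in either direction could not have been seen with these numbers of peaks. The sign rests on the window and on Bmper, since the difference was -7.5 points (-30.3 to 17.4) in the gene spans alone and -5.33 points (-23.2 to 13.0) without Bmper. Over all peaks the CD137 share was 64.4%, and over peaks within 50 kb of any protein-coding gene 62.0%. All 18 FGF genes had at least 1 unique peak, where their length classes give 12.9. Of 29 BMP genes 23 had at least 1, where their length classes give 20.2. Because the genes were chosen with earlier results known, these counts are no test of the pathways. The 6 genes without a peak were all in the BMP arm. They were Bmp2, a ligand that drives bone and fat commitment, Gdf5, a ligand of joint formation, Inhbb, which encodes a subunit of activin B, the type II receptor gene Acvr2b, Smad9 and the noggin gene Nog.

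Within 50 kb, the number of peaks per length of window in each arm lay within the interval of the other. CD137 peaks numbered 8.65 per Mb in the BMP windows (6.21 to 11.7) and 8.07 per Mb in the FGF windows (5.59 to 11.3), against 6.18 per Mb around all protein-coding genes. PDGFRα peaks numbered 4.64 per Mb (2.91 to 7.03) and 4.51 per Mb (2.72 to 7.04), against 3.79. Apart from the CD137 value of the BMP arm, these intervals include the value around all genes, and in the gene spans that interval (6.18 to 16.0) also includes it (6.43). The arms lay farther apart at other windows. Within 100 kb the BMP arm had 9.55 CD137 peaks per Mb (7.47 to 12.0) and the FGF arm 6.99 (5.03 to 9.44), each outside the interval of the other. The value around all genes was 6.05, which the BMP interval leaves out and the FGF interval includes. Within 5 kb the BMP interval (5.71 to 14.4) includes the value around all genes (6.28). In the gene spans the BMP arm had 5.94 PDGFRα peaks per Mb (2.97 to 10.6) and the FGF arm 2.90 (1.17 to 5.98), which is below the 3.96 of all genes where the 50 kb value was above.

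**Figure D2:**
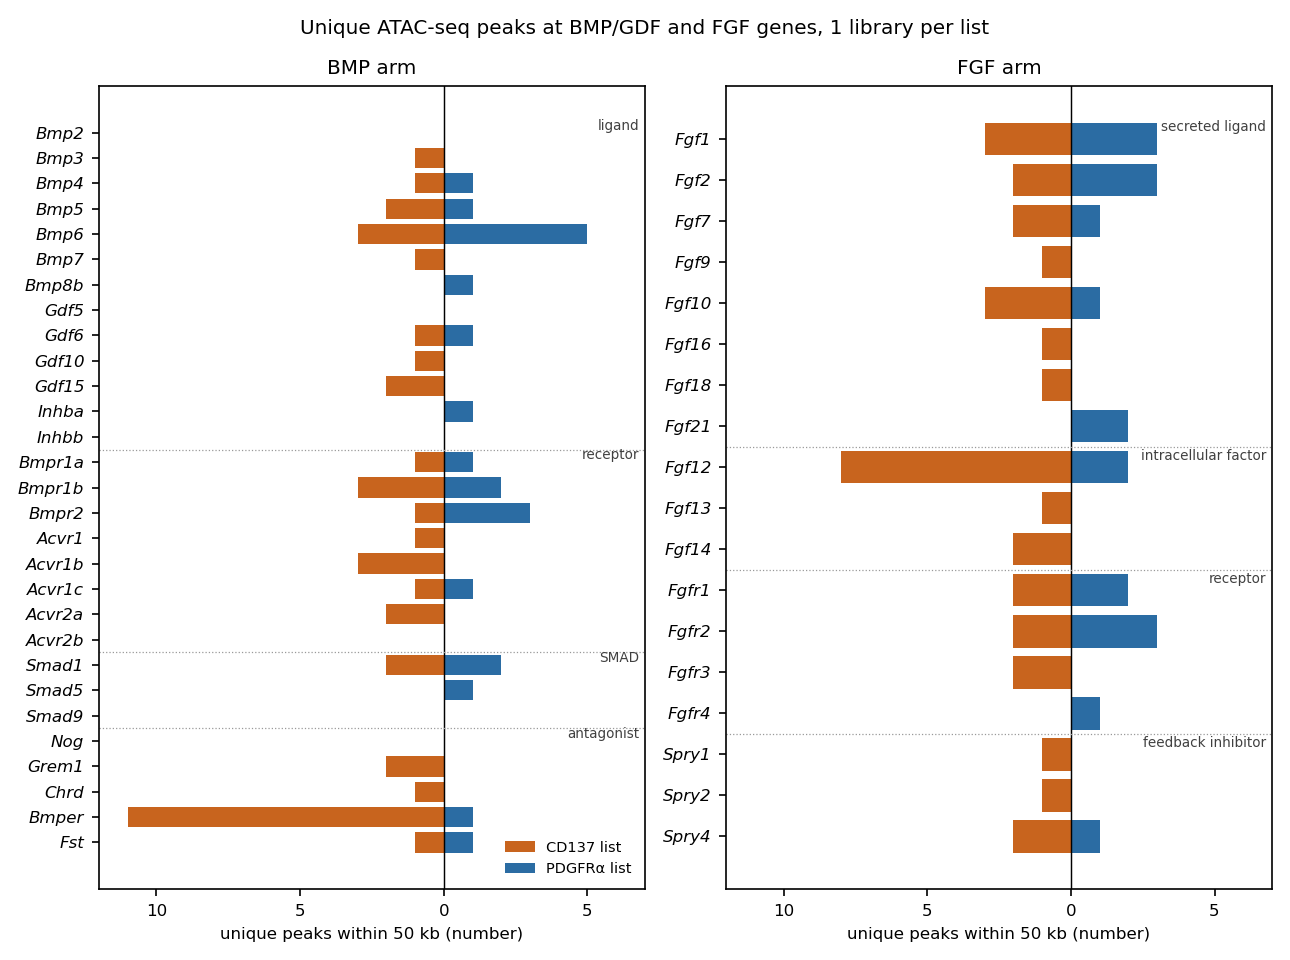
Number of unique peaks within 50 kb of each gene, CD137 list to the left of 0 and PDGFRα list to the right, for the BMP arm (left panel) and the FGF arm (right panel), grouped by role; 1 library per list, so no error bars. Bmper with 11 CD137 peaks and Fgf12 with 8 reach farthest to the left, and Bmp6 with 5 PDGFRα peaks farthest to the right.

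Unique peaks covered a start site at 6 members, and Acvr1c was the only 1 of them with starts covered by both lists. Start sites came from a RefSeq table for build GRCm38.p6 (mm10), which has entries for 36 of the 47 genes. A start counted as covered when a peak overlapped the 250 bases before it, and all 8 covered windows were covered whole. The 6 of 36 members (16.7%, 6.37 to 32.8%) compare with 4.72% of protein-coding genes in the table. These windows were set after the peaks were seen, and the members were chosen with earlier results known. Neither share was adjusted for gene length or base composition, so the comparison is a description only. PDGFRα peaks covered the starts of Bmp6, of Fgf7, and the outer start of Acvr1c, and CD137 peaks covered an inner start of Acvr1c, an inner start of Bmpr1b and of Fgf13, and 2 starts of Fgf12, the outer one and an inner one. Each of the 8 covered windows lay under a peak of 1 list only. The covered sequences are shown for Bmp6, Fgf7, Acvr1c and the outer start of Fgf12, and not for the inner starts of Fgf12, Fgf13 and Bmpr1b. The sequences shown are RefSeq sequences of build GRCm38.p6, 5′ to 3′ on the gene's strand and ending at the base before the start. Capitals mark CpG dinucleotides, the sites of DNA methylation.
Bmp6, chr13:38345466-38345715, plus strand, under a PDGFRα peak: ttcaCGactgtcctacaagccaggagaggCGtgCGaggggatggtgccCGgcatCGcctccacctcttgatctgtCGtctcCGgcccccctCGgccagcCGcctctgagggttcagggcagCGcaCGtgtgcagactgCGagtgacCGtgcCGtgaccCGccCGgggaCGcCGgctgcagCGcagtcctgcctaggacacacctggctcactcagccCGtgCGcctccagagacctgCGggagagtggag
Fgf7, chr2:126034408-126034657, plus strand, under a PDGFRα peak: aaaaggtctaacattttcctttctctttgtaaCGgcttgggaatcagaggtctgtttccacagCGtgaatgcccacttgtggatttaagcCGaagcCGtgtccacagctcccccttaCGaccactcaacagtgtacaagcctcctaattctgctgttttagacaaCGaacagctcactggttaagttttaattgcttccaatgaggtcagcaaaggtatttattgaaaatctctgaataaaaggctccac
Acvr1c outer start, chr2:58357759-58358008, minus strand, under a PDGFRα peak: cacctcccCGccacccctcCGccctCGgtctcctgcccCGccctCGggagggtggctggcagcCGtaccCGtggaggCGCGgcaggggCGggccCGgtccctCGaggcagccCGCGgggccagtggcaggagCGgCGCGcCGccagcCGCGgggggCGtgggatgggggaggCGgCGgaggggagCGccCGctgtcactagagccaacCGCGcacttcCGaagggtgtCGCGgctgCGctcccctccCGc
Acvr1c inner start, chr2:58324808-58325057, minus strand, under a CD137 peak: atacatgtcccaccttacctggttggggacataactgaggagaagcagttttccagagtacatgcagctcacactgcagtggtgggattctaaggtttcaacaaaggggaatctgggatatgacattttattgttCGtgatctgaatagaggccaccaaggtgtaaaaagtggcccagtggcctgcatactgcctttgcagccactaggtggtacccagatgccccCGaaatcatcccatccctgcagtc
Fgf12 outer start, chr16:28753244-28753493, minus strand, under a CD137 peak: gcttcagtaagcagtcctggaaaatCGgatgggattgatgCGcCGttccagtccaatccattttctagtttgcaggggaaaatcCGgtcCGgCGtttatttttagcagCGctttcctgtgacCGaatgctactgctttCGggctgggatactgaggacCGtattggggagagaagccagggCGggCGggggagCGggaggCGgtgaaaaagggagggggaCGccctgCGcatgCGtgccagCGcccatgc
The windows differ in base composition. The outer Acvr1c window has 32 CpGs and 79.6% G and C, the inner one 2 and 49.6%, and the Bmp6 window 22 and 68.8%. The Fgf7 window, with 6 CpGs and 43.6%, is as poor in CpG as the median promoter of the table (6 CpGs), and the outer Fgf12 window has 18. CpG-rich starts were thus covered in both lists, since among the other CD137-covered windows the inner Fgf12 start has 25 CpGs and that of Fgf13 31. The windows with the fewest CpGs, the inner Acvr1c start with 2 and the inner Bmpr1b start with 1, lay under CD137 peaks. PDGFRα peaks covered only 3 windows.

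A search of these windows on both strands for 6 short motifs found 1 match. The motifs were ACANNNTGT, the core spacing of a glucocorticoid receptor site, AGAACA, its single arm, which can overlap the first, CATTCC for TEAD factors, GGCGCC and CAGACA for SMADs, and TGACTCA for AP-1. Of the 8 covered windows, the inner Bmpr1b window held CAGACA, and no other match was present. Over all 49 start windows of members, 2 held ACANNNTGT (4.08%, against 5.84% of 32851 windows in the table), 2 AGAACA (4.08% against 16.1%), 3 CATTCC (6.12% against 12.6%), 10 GGCGCC (20.4% against 9.59%), 7 CAGACA (14.3% against 17.1%) and 1 TGACTCA (2.04% against 4.46%). The windows also differ in base composition, with medians of 64% G and C and 22 CpGs for members against 52.4% and 6 over all windows. The 32851 windows come from 27025 genes, of which 17491 were counted as protein-coding, whereas all members are protein-coding. The motif shares were not adjusted for base composition or for this mix of genes, and the part of either was not tested. A match is a match of letters and not a bound site, and the windows cover only a small part of the peaks.

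Among the BMP ligands, Bmp6 (chr13:38345716-38500314) carried peaks of both lists, with 4 of its 7 pairs of neighbouring peaks from opposite lists. It had 5 PDGFRα and 3 CD137 peaks, all under ENSMUSG00000039004. From the start onward the order was a PDGFRα peak over the start itself (38344392 to 38346996, 2604 bp wide), a CD137 peak in an intron 5.03 kb downstream (38349311 to 38352177, 2866 bp), a PDGFRα peak at 24.2 kb, CD137 peaks at 31.7 kb and 53.3 kb, and PDGFRα peaks at 55.2 kb, 127 kb and 135 kb. The gap between the peak over the start and the first CD137 peak was 2315 bp, and the gap between the CD137 peak at 38398434 to 38399609 and the PDGFRα peak at 38400160 to 38401723 was 551 bp. Of 1439 genes of 100 to 200 kb, 17 (1.18%) had 5 or more PDGFRα peaks in their window, and the median was 1. Its CD137 count was not unusual for its length, since 396 of those genes (27.5%) had 3 or more.

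The other BMP and GDF ligands had 9 CD137 and 5 PDGFRα peaks in all, and most of these lay outside the genes. Bmp4 had 1 of each list, a CD137 peak at chr14:46421861-46422970 and a PDGFRα peak at chr14:46436095-46437472, 31.7 kb and 46.1 kb from the gene and classed intergenic. Bmp5 had a CD137 peak in its own intron (chr9:75815043-75816182), a second beyond the gene (75909629 to 75911053) and a PDGFRα peak 27.3 kb beyond it (75927061 to 75928101). The peaks beyond the gene were classed intron under another Ensembl ID, so they cannot be assigned to Bmp5 alone. Gdf6, a ligand of joint and skull development, had a CD137 peak over an exon (chr4:9859027-9860526) and a PDGFRα peak 12.9 kb outside (9830946 to 9831935). Bmp3, which restrains BMP signalling, its relative Gdf10, and Bmp7 had 1 CD137 peak each, 14.2 kb, 26.5 kb and 36.9 kb away. Gdf15, a stress hormone that acts on appetite, had 2 CD137 peaks, at 10.7 kb and, in an exon of the neighbouring gene Ell, at 44.0 kb. Bmp8b had a PDGFRα peak in an intron (chr4:123106723-123107829), and Inhba, which encodes the activin A subunit, had a PDGFRα peak inside its span (chr13:16005177-16006053); neither had a CD137 peak.

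Receptors of the BMP arm had 12 CD137 and 7 PDGFRα peaks, a CD137 share of 63.2% (38.4 to 83.7%). The type I receptor gene Acvr1c, whose product is found in fat cells and is known for restraining fat breakdown, had 1 peak of each list, each over a different start site. The PDGFRα peak (chr2:58357460-58358388) covered the outer start, and the CD137 peak (chr2:58324209-58325084) covered the start 33.1 kb inside the gene. Bmpr1a, the main type I BMP receptor gene of fat progenitors, had a CD137 peak 12.9 kb downstream of its start (chr14:34488577-34490721) and a PDGFRα peak 34.6 kb downstream (chr14:34467335-34468496), both intronic. Bmpr1b, the gene of a related type I receptor, had 3 CD137 and 2 PDGFRα peaks in strict alternation along chromosome 3, at 141818941 to 141819877 (CD137, in the neighbour Unc5c), 141906059 to 141907060 (PDGFRα), 141981197 to 141982585 (CD137, over an inner start), 142049908 to 142051361 (PDGFRα) and 142186066 to 142187369 (CD137, beyond the gene). The type II receptor gene Bmpr2 had 3 PDGFRα peaks and 1 CD137 peak, all outside its span. The PDGFRα peaks lay at chr1:59725338-59726585, 59886300 to 59887944 and 59900589 to 59901785, and the CD137 peak at 59733091 to 59734827. At 4 of the 8 receptor genes both lists were thus present.

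The activin receptor genes Acvr1b and Acvr2a and the BMP type I receptor gene Acvr1 had CD137 peaks only. Acvr1b had 3, over its own exon (chr15:101197611-101198898), over an exon of the neighbour Grasp (101227389 to 101229038) and at the beginning of Nr4a1 (101259834 to 101261866), 47.2 kb away. Of 5094 genes of 20 to 50 kb, 294 (5.77%) had 3 or more CD137 peaks, but only 1 of the 3 was in the gene itself. Acvr2a had 2, both in introns, and Acvr1 had 1 within its span, which the authors classed up5k.

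**Figure D3:**
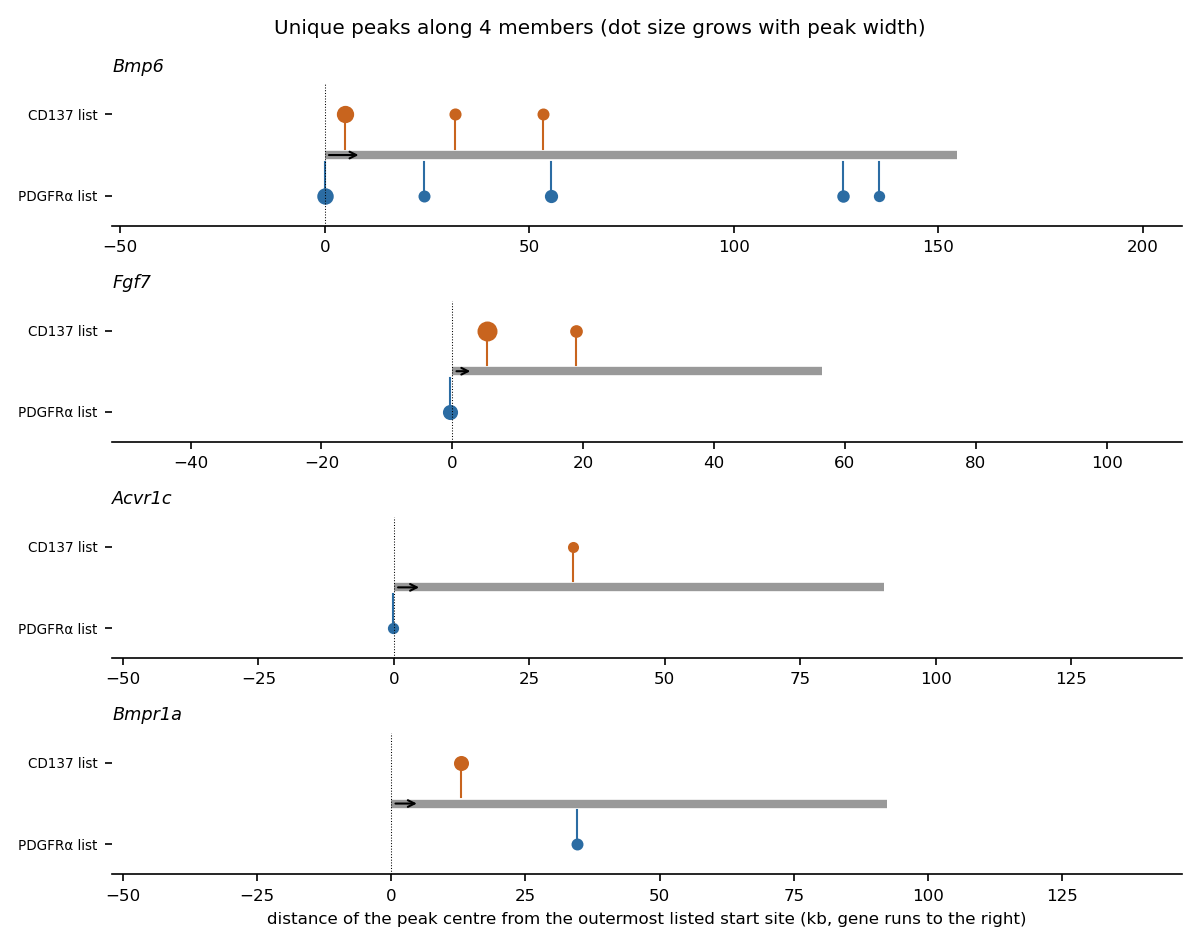
Positions of unique peaks along Bmp6, Fgf7, Acvr1c and Bmpr1a in kb from the outermost listed start site; the grey bar is the gene, the arrow its direction, dots above it CD137 peaks and dots below it PDGFRα peaks, larger for wider peaks. At Bmp6, Fgf7 and Acvr1c the PDGFRα peak sits at the start, and the first CD137 peaks lie 5.03 kb, 5.24 kb and 33.1 kb inside the gene, whereas at Bmpr1a the CD137 peak is the nearer one, at 12.9 kb.

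Among the SMAD genes, Smad1 had 2 peaks of each list, Smad5 had 1 PDGFRα peak 13.0 kb outside the gene and Smad9 had none. At Smad1 a PDGFRα peak over an exon (chr8:79349582-79351356) was the only peak in the gene. The other PDGFRα peak lay at 79296353 to 79298775, and the CD137 peaks at 79306892 to 79308138 and 79446903 to 79448222, all 30 kb or more away.

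The genes of the secreted BMP antagonists had 15 CD137 and 2 PDGFRα peaks, and 11 of the CD137 peaks lay at Bmper. Their CD137 share was 88.2% (63.6 to 98.5%), and without Bmper it rested on 4 CD137 peaks and 1 PDGFRα peak (80%, 28.4 to 99.5%). Bmper (chr9:23223076-23485215) encodes a secreted chordin-like protein that binds BMPs and tunes their activity. Of 638 genes of 200 to 400 kb, only Bmper and 1 other had 11 or more CD137 peaks, and the median was 2. Its CD137 peaks lay 43.2 kb and 14.7 kb before the start (chr9:23179252-23180409 and 23207798 to 23208924), at 33.6, 88.4, 118, 125, 140 and 161 kb in introns, at 251 kb over an exon (23473201 to 23474280), at the far end of the gene (23484215 to 23486677, 2462 bp wide) and 33.8 kb beyond it (23518315 to 23519753). The PDGFRα peak (chr9:23238625-23240081) was intronic, 16.3 kb after the start. The 6 intronic CD137 peaks began at 23256113, 23310510, 23340525, 23347829, 23362803 and 23383048 and ended at 23257184, 23312407, 23342097, 23348996, 23364054 and 23384146.

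The other antagonists had few peaks, none of them in the genes. Grem1, which encodes gremlin, had 2 CD137 peaks, 6.73 kb from the gene and, within the neighbour Fmn1, 35.2 kb from it. Chrd, the chordin gene, had 1 CD137 peak 28.6 kb away. Fst, which encodes the activin-binding protein follistatin, had a PDGFRα peak 34.9 kb away (chr13:114493327-114494539) and a CD137 peak 49.1 kb away (114507674 to 114508476).

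Secreted FGF genes had 13 CD137 and 10 PDGFRα peaks, a CD137 share of 56.5% (34.5 to 76.8%). Fgf7 (chr2:126034658-126091185), whose product is made by stromal cells and acts on epithelia, had, like Bmp6, a peak of each list near its start. A PDGFRα peak (126033152 to 126035321, 2169 bp) covered its start. A CD137 peak followed 2708 bp farther in (126038029 to 126041759) and a second at 19.0 kb (126052931 to 126054325). The first of these CD137 peaks, at 3730 bp, was the widest at any member, and 55 of all CD137 peaks (0.380%) were as wide. The gene Fam227b overlaps this region, so the peaks are not Fgf7's alone. Unlike at Bmp6, the deposited Ensembl ID of the PDGFRα peak differs from that of the CD137 peaks.

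Fgf2, a mitogen of fat progenitors, had 2 CD137 and 3 PDGFRα peaks. In the gene, a PDGFRα peak (chr3:37377171-37379343) and a CD137 peak (37379707 to 37381188) were 364 bp apart, the closest pair of opposite lists at any member, and a further CD137 peak lay at 37398312 to 37400147. That further peak carries a different Ensembl ID from the pair and the class up5k. The remaining PDGFRα peaks were outside, at 37337793 to 37339294 and, in the neighbour Spata5, at 37453347 to 37454624. Fgf10 had 3 CD137 peaks and 1 PDGFRα peak. The CD137 peaks lay 22.5 kb before the start (chr13:118691654-118692833), in an intron (118731585 to 118733140) and over an exon (118789188 to 118790510), and the PDGFRα peak in an intron (118772748 to 118773967). Fgf1, which is known to be induced in fat by feeding, had 3 of each list on chromosome 18. The CD137 peaks lay at 38791395 to 38792679, 38896958 to 38898070 and 38946348 to 38947372, and the PDGFRα peaks at 38795398 to 38797075, 38801159 to 38802850 and 38869582 to 38870846. All 6 lie within the long neighbour Arhgap26 and carry the same Ensembl ID, so they cannot be assigned to Fgf1.

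The other secreted FGF genes had peaks of 1 list only, and all of these lay outside the genes. Fgf9, Fgf16 and Fgf18 had 1 CD137 peak each, 41.2 kb, 23.9 kb and 33.5 kb away, that of Fgf16 in an exon of the neighbour Atrx. Fgf21, which encodes a hormone of liver and fat, had 2 PDGFRα peaks, 20.5 kb and 26.5 kb away, the second within the neighbour Mamstr.

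The 3 genes of intracellular FGF-like factors, which bind sodium channels and are not secreted, had 11 CD137 and 2 PDGFRα peaks (84.6%, 54.6 to 98.1%). Most of these lay at Fgf12 (chr16:28157783-28753243), with 8 and 2, all inside its span of 595 kb. Of 351 genes of 400 kb or more, 52 (14.8%) had 8 or more CD137 peaks, and the median was 4. The CD137 peaks covered the outer start (28752435 to 28753945) and an inner start (28563857 to 28564910), and the others lay at 28162589 to 28164095, 28336252 to 28337768, 28491457 to 28492746, 28517597 to 28518776, 28693809 to 28695121 and 28726270 to 28727404. The PDGFRα peaks lay near each other at 28587368 to 28588635 and 28592629 to 28593748. Fgf13 had 1 CD137 peak over an inner start (chrX:59133303-59135578) and Fgf14 had 2, although their spans are 523 kb and 703 kb, so both had fewer than the median of 4 for their length. Without these 3 genes the FGF arm had 23 CD137 and 17 PDGFRα peaks, a share of 57.5% (40.9 to 73.0%).

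**Figure D4:**
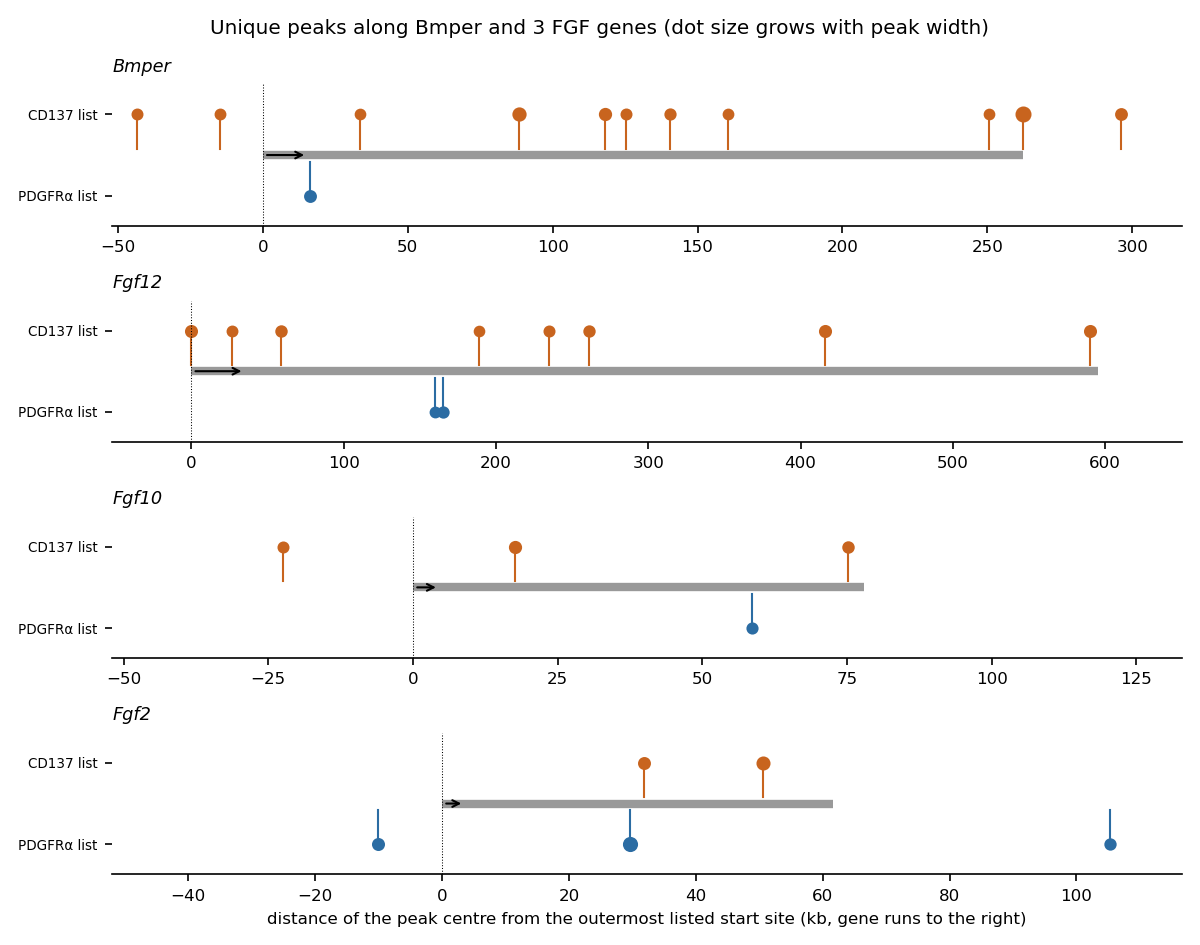
Positions of unique peaks along Bmper, Fgf12, Fgf10 and Fgf2 in kb from the outermost listed start site; the grey bar is the gene, the arrow its direction, dots above it CD137 peaks and dots below it PDGFRα peaks, larger for wider peaks. Bmper shows 11 CD137 peaks spread over the gene and both flanks with 1 PDGFRα peak at 16.3 kb, and Fgf12 shows 8 CD137 and 2 PDGFRα peaks.

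FGF receptor genes had 6 peaks of each list. Fgfr1, the main FGF receptor gene of mesenchymal cells, had 2 PDGFRα peaks in its span (chr8:25546203-25547619 and 25574674 to 25575847) and 2 CD137 peaks outside it (25483860 to 25485120 and, in the neighbour Letm2, 25584768 to 25587181). The PDGFRα peak at 25574674 carries the same Ensembl ID as the peak in Letm2, so it cannot be assigned to Fgfr1 alone. Fgfr2, the receptor gene for Fgf7 and Fgf10, had 3 PDGFRα and 2 CD137 peaks, none in the gene. The CD137 peak at chr7:130140825-130142214 and the PDGFRα peak at 130143024 to 130144113 were 810 bp apart, and the others lay at 130128981 to 130130267 (CD137), 130299004 to 130299943 and 130308624 to 130310136 (both PDGFRα). Fgfr3 had 2 CD137 peaks, the nearer 1.02 kb beyond the gene (chr5:33737556-33738626), and Fgfr4, whose product is a liver receptor for FGF hormones, had 1 PDGFRα peak 9.74 kb away. The Sprouty genes had 4 CD137 peaks and 1 PDGFRα peak. Spry2 had a CD137 peak 1.16 kb from the gene (chr14:105889891-105891674), Spry1 had 1 at 42.8 kb, and Spry4 had CD137 peaks at 7.74 kb and 42.9 kb (chr18:38578120-38578889 and 38643549 to 38644949) and a PDGFRα peak at 33.8 kb (38634669 to 38635720). The peaks at 42.9 kb and 33.8 kb lie in Arhgap26 and carry the same Ensembl ID as those near Fgf1, so they cannot be assigned to Spry4.

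**Figure D5:**
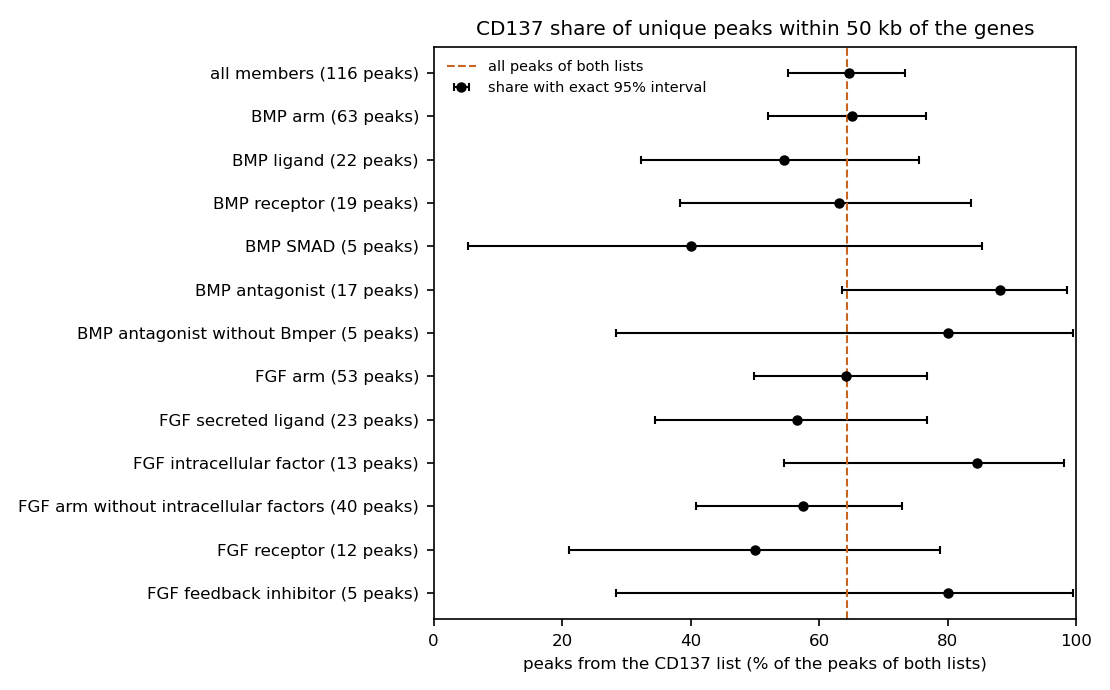
Share of peaks from the CD137 list (% of the peaks of both lists) within 50 kb of each group of genes; points are shares, bars exact 95% intervals for counting error, and the dashed line the share over all peaks, 64.4%. The arms sit at 65.1% and 64.2%, both beside the line, and the antagonists at 88.2% and the intracellular factors at 84.6% lie to its right with wide intervals.

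Peaks of opposite lists seldom adjoined each other at these genes. At the 19 members with both, the closest pair of opposite lists was a median of 13.1 kb apart, and 3 pairs, at Fgf2, Bmp6 and Fgfr2, were under 1 kb apart. Within 1 kb of a peak of the other list lay 3 of 75 CD137 member peaks (4%, 0.833 to 11.2%) against 1.53% of the whole CD137 list, and 3 of 41 PDGFRα member peaks (7.32%, 1.54 to 19.9%) against 2.77% of that list. Both intervals include the value of the whole list.

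The peaks were split between genes and flanks in similar proportions in both lists. Of the CD137 peaks 36 of 75 (48%, 36.3 to 59.8%) and of the PDGFRα peaks 18 of 41 (43.9%, 28.5 to 60.3%) had their centre in the member's span. In the flanks, 11 of 39 CD137 and 6 of 23 PDGFRα peaks lay within another protein-coding gene. By the authors' place classes, exons held 13 of the 75 CD137 peaks (17.3%, 9.57 to 27.8%) against 7.17% of the whole CD137 list, and 2 of the 41 PDGFRα peaks (4.88%, 0.596 to 16.5%) against 9.12%. Of the 13 CD137 peaks 8 lay in the member itself and 5 in a neighbour. The intergenic class held 34.7% of the CD137 member peaks against 45.3% of that whole list, and 26.8% of the PDGFRα ones against 38.7%, with intervals of 24.0 to 46.5% and 14.2 to 42.9% that include the whole-list values. Of 10 comparisons of a class with its whole list, the interval left out the whole-list value only for CD137 exons. Member peaks lie in or within 50 kb of a gene by the way they were chosen, whereas 16823 of all 22485 peaks do. These comparisons are therefore not matched for nearness to genes.

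Other genes of the same pathways were counted from a list that holds no member. Over all protein-coding genes 24.7% had CD137 peaks only, 15.6% PDGFRα peaks only and 24.8% both. Of 38 further BMP genes, 8 had CD137 peaks only, 6 PDGFRα peaks only and 13 both, with 34 CD137 and 30 PDGFRα peaks (53.1%, 40.2 to 65.7%). Among those with the largest differences were Tgfbr3, which encodes a co-receptor for BMPs and TGF-beta (4 CD137 peaks and 1 PDGFRα peak), Bmp1, which encodes a protease that cleaves chordin (1 and 4), and Id2, a target gene of SMAD signalling (0 and 3). Id1, another SMAD target, chosen after its values were seen, had 2 and 0. Of 30 further FGF genes, 13 had CD137 peaks only, 5 PDGFRα peaks only and 5 both, with 28 and 15 peaks (65.1%, 49.1 to 79.0%). Klb, which encodes the co-receptor of Fgf21, and Il17rd, an inhibitor of FGF signalling, had 3 CD137 peaks each, and the phosphatase gene Dusp6 and Fgf15 had 2 each, all without a PDGFRα peak.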

How the data were processed

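ATAC-seq peaks of 2 libraries, CD137 and PDGFRα, were used, grouped by the samples' titles. The authors deposited 1 list of unique peaks per library with chromosome, start, end, Ensembl ID and place class, per the file headers, and no other measured value. The submitters' processing notes name CASAVA 1.8 and mm10 but not what each was used for. The alignment, the peak calling and the rule for unique peaks, like the first base of the coordinates (0 or 1), were not given in the sources used here. Counts also carry sequencing depth and calling threshold, since either can lengthen a list.

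Peak centres were assigned to RefSeq protein-coding genes of GRCm38.p6. Of peaks classed intron, 95.4% (CD137) and 95.2% (PDGFRα) lay in such a gene. Moving the same peaks by 3 Mb left 41.1% and 41.4% in one. A peak within 50 kb of several genes counts for each in the background, but no peak was shared by members. Length classes were cut at 20, 50, 100, 200 and 400 kb. The members and gene lists were chosen with earlier results of these data known, and the CpG counts, the length classes and the start windows of 250 bases were added after the peaks were seen. Every member is named, and coordinates are given for members with 3 or more peaks or peaks of both lists; of the other pathway genes the 4 per arm with the largest difference were to be named, ties by alphabet, and 1 of them is not reported here. Assignment was tested on simulated data, where all of 2000 centres were found at their gene. Alternatives covered windows, peak widths, assignment by nearest gene or Ensembl ID, counting each gene once, and leaving out genes. Intervals came from scipy 1.17.1, tables from pandas 2.3.3 and numpy 2.4.6 and plots from matplotlib 3.10.9, under Python 3.11.15.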

Additional observations from a re-analysis of the deposited data

How the results depend on the processing

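No paired analysis was possible because each group holds a single library, and leave-one-out fits could not be made either. Depth is unknown and was not equalised. Over 13 alternatives the BMP minus FGF difference of the CD137 share ran from -20 to 7.58 percentage points and was below 0 in 9, above 0 in 3 and 0 in 1, and its interval included 0 in all 13. With CD137 cut to its widest peaks, as many as the PDGFRα list holds, the share was 50% over all peaks by construction, 48.3% within 50 kb of any protein-coding gene and 51.1% at the BMP arm. With the same cut and peaks inside the genes only, chosen after the data were seen, it was 45% at the BMP arm against 48.9% in all genes, and the difference was -20 points (-45.6 to 10.1). Without Bmper alone, also added later, the difference was -5.33 points, and without Bmper and Fgf12 it was -1.64. In the gene spans alone the shares were 63.3% (BMP) and 70.8% (FGF). The FGF share was 54.8 to 75% over its 11 alternatives. The number of members with a peak followed the window. In the gene spans it was 17 for CD137, 12 for PDGFRα and 8 for both lists, within 5 kb it was 19, 14 and 10, and within 100 kb it was 42, 32 and 27. The share of all protein-coding genes was counted only at 50 kb, so these numbers have no background beside them. With CD137 cut to its widest peaks as above, the numbers within 50 kb were 27, 24 and 16. The peaks per Mb stayed within their main intervals in all 12 alternatives run.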

Other observations

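The deposited classes and IDs did not always follow the RefSeq genes at these members. Of the 54 member peaks with their centre in the gene's span, 9 were classed intergenic, 6 CD137 peaks and 3 PDGFRα peaks. At Fgf12 these were 6 CD137 and 2 PDGFRα peaks, so a count by deposited ID gives Fgf12 only 2 CD137 peaks and no PDGFRα peak where position gives 8 and 2. At Inhba the only peak was of this kind.

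The 2 PDGFRα peaks on the far side of Fgfr2 carry ENSMUSG00000030849 and the class intron, although they lie 32.7 kb and 42.6 kb outside the RefSeq span of Fgfr2. The same ID was given to 22 CD137 and 15 PDGFRα peaks over 2.80 Mb of chromosome 7, between 130299004 and 133095173, and none of them has its centre in Fgfr2. The peak over the outer start of Acvr1c was classed down5k, and the RefSeq table puts it at the beginning of the gene.

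Of the BMP genes, Bmper had the most CD137 peaks and Bmp6 the most PDGFRα peaks. Bmper had 11 CD137 peaks and 1 PDGFRα peak, and Bmp6 had 3 and 5. Leaving out Bmper lowers the CD137 share of the arm from 65.1% to 58.8%.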
